A study of Homo sapiens with 12 samples.

Results

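The mitochondrial ribosomal protein genes (MRP genes) encode the protein components of the ribosome that works inside mitochondria. They were taken from the deposited expression tables of SZ95 sebocytes as every gene whose symbol is MRPL or MRPS followed by a number and, in some cases, a letter from A to C, and were joined between the tables by gene identifier. This gave 78 genes, 49 with MRPL names (large subunit) and 29 with MRPS names (small subunit), out of 60671 genes in the table of LA libraries and 60666 in the table of PGN libraries. All 78 carried the same symbol in both tables and all are annotated as protein coding. SZ95 is an immortalised human line from the sebaceous gland, and RNA was sequenced from 12 libraries in 4 groups of 3. The groups were LA+RVT and LA in one table (the LA arm) and PGN+RVT and PGN in the other (the PGN arm). RVT is resveratrol, a plant polyphenol, and the series title gives its action on lipid build-up and inflammation as the question. The abbreviations LA and PGN have no long form in the labels; linoleic acid and bacterial peptidoglycan are the readings taken. Every library carries 1 of the stimuli, so each comparison is of RVT added to a stimulus with that stimulus alone, at doses and times that the labels leave out.

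The mitochondrial ribosome translates the few messenger RNAs encoded by mitochondrial DNA, all of which give subunits of the respiratory chain and ATP synthase. Its ribosomal RNAs are made in the mitochondrion, whereas all of its proteins are encoded in the nucleus, made in the cytosol and imported. Many of the proteins have bacterial counterparts, and others are found only in mitochondrial ribosomes. Not every MRP symbol names a protein of the subunit it points to: MRPS30 and MRPS18A sit in the large subunit, and MRPS36, also called KGD4, is a subunit of the 2-oxoglutarate dehydrogenase complex that has not been found in structures of the mammalian mitochondrial ribosome.

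Nuclear genes of mitochondrial proteins often carry binding sites for ETS factors such as GABPA and for NRF1 near their starts, so RefSeq promoters (GRCh38.p14, 250 bases before to 50 bases after each start) were searched on both strands for the ETS letters CCGGAAG and the NRF1 letters (GCGCA, then any base, then GCGC). A promoter was found for 69 of the 78 genes. The ETS letters were in the promoters of 30 of the 69 genes (43.5%), against 12.2% of all 27305 genes of the promoter table and 16.7% of its 14896 protein-coding genes. The NRF1 letters were in 9 (13%), against 6.98% of all genes and 9.75% of protein-coding genes, and 32 of the 69 (46.4%) held neither, against 82.4% of all genes and 75.8% of protein-coding genes. The 150 bases before the start are printed for 4 genes whose values carry the comparisons with RVT. MRPS23 (chr17:57850045-57850194, minus strand) and MRPL3 (chr3:131502972-131503121, minus strand) rose in LA cells given RVT, MRPS24 (chr7:43869518-43869667, minus strand) is the most abundant member and fell there, and MRPS15 (chr1:36464385-36464534, minus strand) rose in PGN cells given RVT. Capitals mark the ETS letters or their reverse complement.
MRPS23: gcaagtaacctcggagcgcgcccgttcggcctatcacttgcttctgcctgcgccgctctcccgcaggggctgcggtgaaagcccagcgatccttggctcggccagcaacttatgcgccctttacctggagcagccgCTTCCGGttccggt
MRPL3: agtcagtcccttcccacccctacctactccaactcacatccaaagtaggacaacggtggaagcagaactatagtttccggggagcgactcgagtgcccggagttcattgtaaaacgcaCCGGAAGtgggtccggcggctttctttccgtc
MRPS24: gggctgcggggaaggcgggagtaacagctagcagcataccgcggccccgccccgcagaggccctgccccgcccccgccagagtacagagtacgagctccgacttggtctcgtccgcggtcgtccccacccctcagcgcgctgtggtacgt
MRPS15: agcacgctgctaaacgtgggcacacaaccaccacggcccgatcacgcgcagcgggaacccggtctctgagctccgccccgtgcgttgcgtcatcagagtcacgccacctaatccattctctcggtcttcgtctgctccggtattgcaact
The ETS letters began 14 bases before the start in MRPS23 and 32 bases before it in MRPL3, and neither motif was in the windows of MRPS24 and MRPS15. These 4 genes do not stand for the rest. In the LA arm 3 of 30 members with ETS letters and 4 of 39 without were called higher with RVT (limma, adjusted p under 0.05). In the PGN arm 2 with and 2 without were called higher. The shares over all genes tested were 10.7% and 10.6%. A match of letters is a description of the sequence and not a measured site.

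The deposited values were read as TPM from their decimals and column sums, since no header names the unit. TPM is a relative abundance that scales expression to transcript length and to the library total. On that reading levels can be compared between genes, and no read depth can be had from them. Column sums ran between 994373 and 997060, and a library had 14489 to 15452 genes at 1 TPM or more. Within an arm, libraries correlated at 0.962 or more (Pearson, log2 of TPM + 1), and PGN+RVT replicate 2 had the lowest median correlation with its arm (0.967). All 6 epithelial markers and 7 of 11 sebaceous markers (KRT7, MUC1, PPARG, FASN, SCD, PLIN2 and FADS2) averaged at least 1 TPM in every group, while the late sebaceous genes AWAT1 and AWAT2 and the melanocortin receptor MC5R were among those under 1 TPM. Of other cell types, 2 of 7 fibroblast, 2 of 6 immune, 1 of 4 endothelial and 2 of 5 melanocyte markers reached 1 TPM in every group. Those above 1 TPM were the fibroblast markers COL1A1 and THY1, the immune markers CD14 and CD68, the endothelial marker CDH5 and the melanocyte markers PMEL and MITF, while PTPRC, DCN, PDGFRA, PECAM1, VWF and TYR averaged under 0.5 TPM in every group. CDH5 averaged 6.69 TPM in LA+RVT and 16.9 TPM in LA cells (log2 fold change -1.22, adjusted p = 0.000328, limma), and 22.9 TPM in PGN+RVT and 24.8 TPM in PGN cells, with no call. CD68, a lysosomal protein that many cell types make, rose in both arms, at 54.2 TPM in LA+RVT and 46.6 TPM in LA cells (adjusted p = 0.0309, limma) and at 49.7 TPM in PGN+RVT and 32.4 TPM in PGN cells (adjusted p = 0.000796, limma). The summed endothelial markers stood at 7.56 TPM in LA+RVT and 17.8 TPM in LA cells, and the summed immune markers at 52.8 TPM in PGN+RVT and 35.8 TPM in PGN cells; their part in the results on MRP genes was not tested. Nothing in the labels says that the replicates came from separate cultures, so p-values measure only the spread between these libraries.

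MRP transcripts were abundant in all 4 groups. Every member was above 0 in all 12 libraries, and the median member averaged 69.3 TPM in LA+RVT and 67.1 TPM in LA cells, and 77.7 TPM in PGN+RVT and 76.9 TPM in PGN cells. The median gene tested averaged 16 TPM in the LA arm and 15.2 TPM in the PGN arm, and 75 and 76 members lay above it. Between 71 and 72 members lay between 20 and 200 TPM in any one group. The replicate spread was small, with a median coefficient of variation of 4.08% in LA+RVT, 4.22% in LA, 5.24% in PGN+RVT and 5.36% in PGN libraries.

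**Figure D1:**
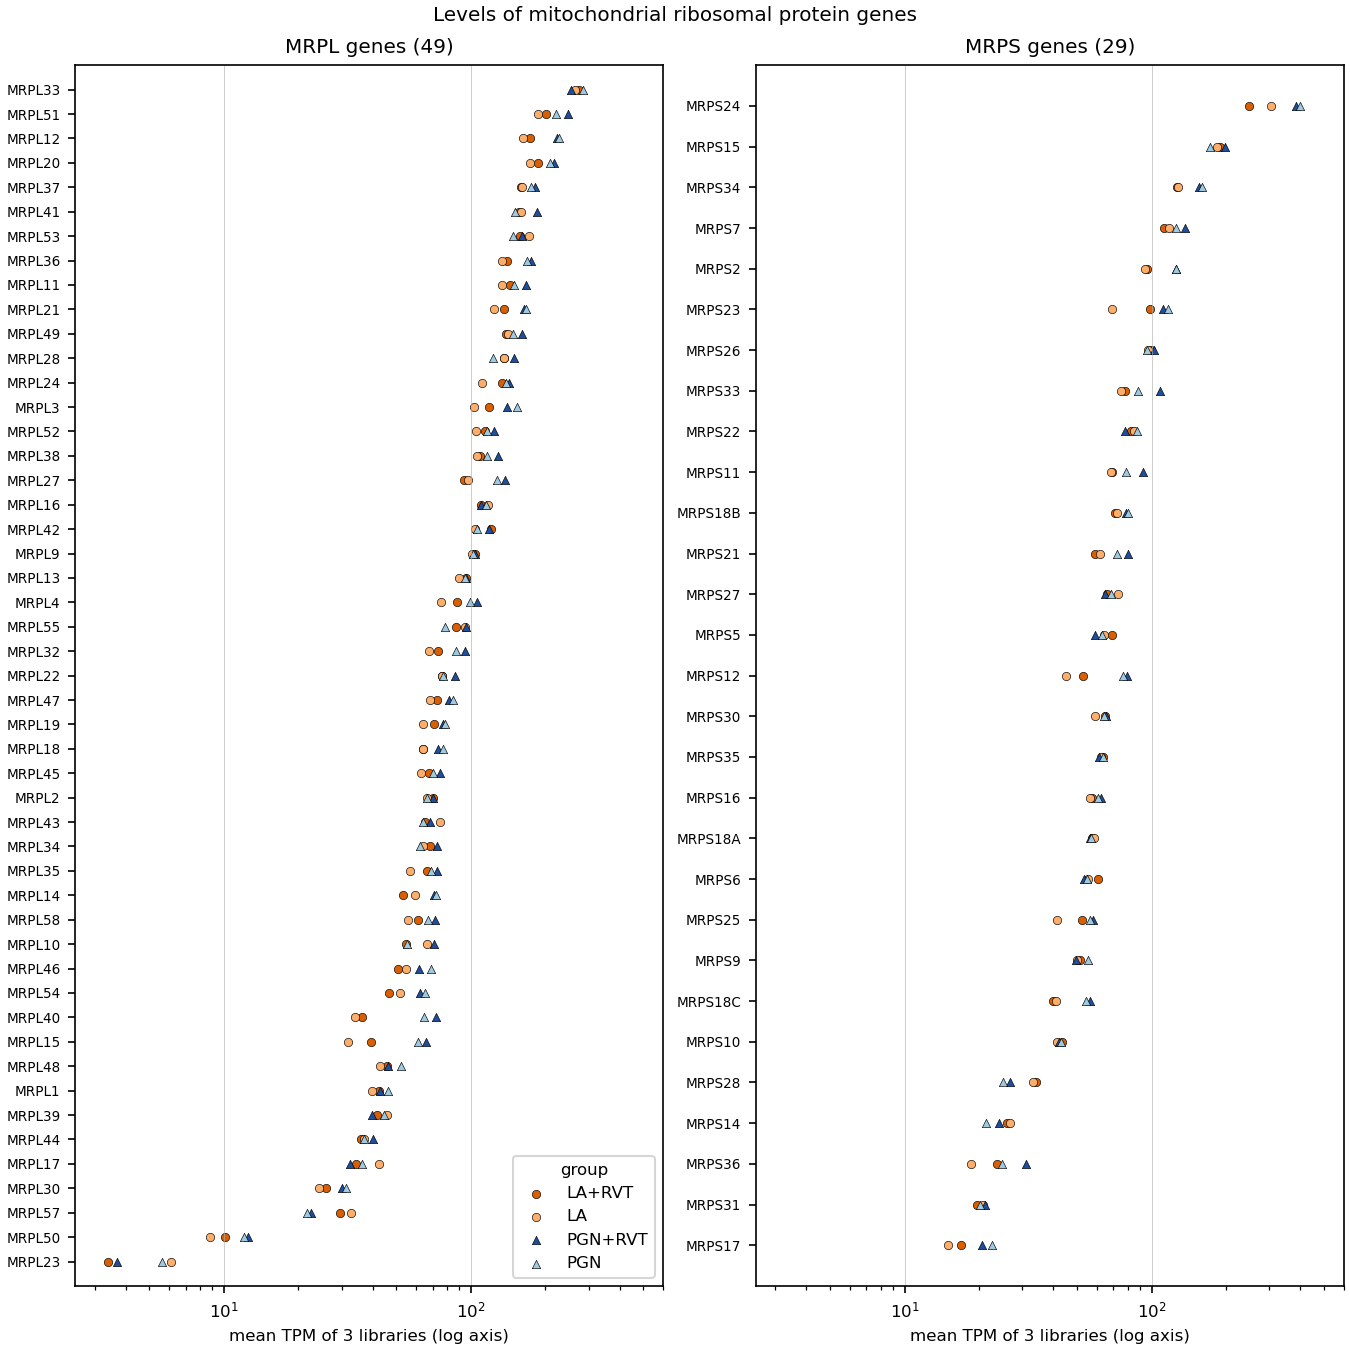
Mean TPM of 3 libraries (log axis) of each MRPL gene (left) and MRPS gene (right) in LA+RVT, LA, PGN+RVT and PGN cells, ordered by the mean of the 4 groups. Most genes lie between 20 and 200 TPM, MRPL23 is lowest in every group (3.40 to 6.10 TPM), and the groups of an arm lie close together for most genes.

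The order of levels was much the same in both tables (Spearman 0.961 over 78 genes, a description, since each table holds different libraries of the same line). MRPS24, the counterpart of bacterial S3 in the small subunit, was the most abundant member over the libraries of each arm. It averaged 249 ± 18.3 TPM in LA+RVT and 306 ± 13.9 TPM in LA cells (SD, n = 3 each). In the PGN arm it averaged 386 ± 29.8 TPM in PGN+RVT and 399 ± 25.3 TPM in PGN cells (SD, n = 3 each). MRPL33, a small protein of the large subunit, followed with 275 ± 8.40 TPM in LA+RVT and 265 ± 12.2 TPM in LA cells, and with 253 ± 11.1 TPM in PGN+RVT and 284 ± 41.8 TPM in PGN cells (SD, n = 3 each). MRPS24 and MRPL33 overlapped in their LA+RVT libraries and were apart in the LA libraries and in both PGN groups, with MRPS24 higher. MRPL51 and MRPL20 were among the 5 highest members in both arms, MRPS15 in the LA arm, and MRPL12, a stalk protein that also binds the mitochondrial RNA polymerase, in the PGN arm.

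At the low end stood MRPL23, a protein at the exit of the peptide tunnel, with 3.56, 3.30 and 3.35 TPM in LA+RVT and 4.74, 7.94 and 5.63 TPM in LA cells. Its PGN+RVT libraries had 4.80, 3.90 and 2.43 TPM and its PGN libraries 5.71, 6.32 and 4.86 TPM. The large-subunit protein MRPL50 was next, at 10.1 ± 0.406 TPM in LA+RVT and 8.83 ± 0.181 TPM in LA cells, and at 12.5 ± 0.287 TPM in PGN+RVT and 12 ± 0.685 TPM in PGN cells (SD, n = 3 each). The third from the bottom was MRPS17 in the LA arm and MRPS31 in the PGN arm. In TPM, 57 of the 78 members had the higher mean in the PGN table, values set side by side only, since the tables differ in their gene lists and levels were not tested across them.

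Summed over the 78 genes, MRP transcripts took 0.660%, 0.662% and 0.672% of all TPM in the LA+RVT libraries and 0.634%, 0.654% and 0.660% in the LA libraries. The corresponding shares in the PGN arm were 0.764% ± 0.0206 in PGN+RVT and 0.737% ± 0.00361 in PGN libraries (SD, n = 3 each). The LA groups overlapped at 0.660%, and the sums were not tested. Transcripts of the 37 mitochondrially encoded genes took 13.1% ± 0.171 in LA+RVT and 14.0% ± 0.286 in LA libraries, and 10.7% ± 0.518 in PGN+RVT and 11.5% ± 0.215 in PGN libraries (SD, n = 3 each). Those of 88 cytosolic ribosomal protein genes took 13.2% ± 0.140 in LA+RVT and 14.8% ± 0.279 in LA libraries, and 15.5% ± 0.327 in PGN+RVT and 16.3% ± 0.155 in PGN libraries (SD, n = 3 each). TPM is a share of the total, so where large classes take a smaller share, other genes gain, and in bulk RNA fewer cells of a kind and less RNA per cell cannot be told apart.

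**Figure D2:**
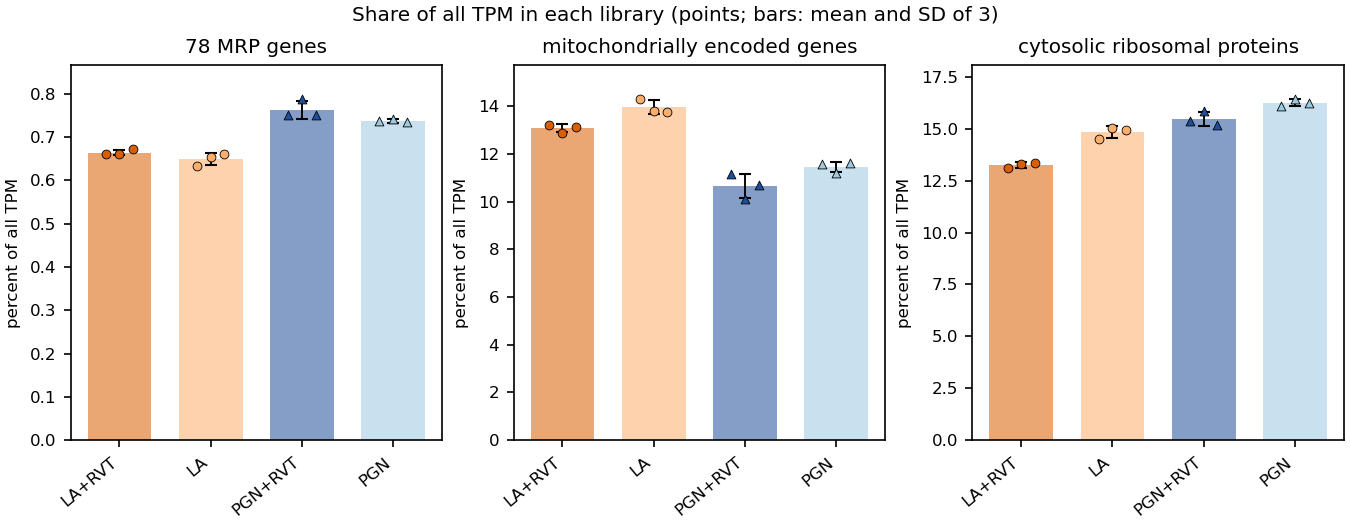
Percent of all TPM in each library taken by the 78 MRP genes, by 37 mitochondrially encoded genes and by 88 cytosolic ribosomal protein genes; points are libraries, bars and whiskers the mean and SD of 3. MRP genes take 0.634% to 0.672% in the LA arm, whereas the mitochondrially encoded and cytosolic ribosomal sums are lower in LA+RVT than in LA libraries.

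In the LA arm RVT changed 12 of the 78 MRP genes, 9 of them higher and 3 lower (limma on log2(TPM + 1), Benjamini-Hochberg adjusted p under 0.05 over 15409 genes). Of all genes tested, 15.7% were called, 10.7% higher and 5.07% lower, and the members' shares were 15.4%, 11.5% and 3.85%. The largest rise was that of MRPS23 (1.42-fold) and the largest fall that of MRPL23, the least abundant member. The median log2 fold change was 0.04 over the members and 0.04 over all genes tested. Above 0 were 50 of the 78 members and 57.6% of all genes tested. No member reached a log2 fold change of 1 in either direction, and the 95% interval of 74 members lay within 0.5 of 0. Equalising library medians gave 6 higher and 8 lower calls and a members' median of -0.01. Over all 15409 genes it gave 1041 higher and 1080 lower calls and a median of -0.01. The members' split was also 6 and 8 when TPM was rescaled without mitochondrially encoded and cytosolic ribosomal protein genes. With that rescaling, 1049 of 15410 genes were called higher and 1076 lower.

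Among small-subunit genes, MRPS23 had 102, 98.8 and 96.1 TPM in LA+RVT cells, against 68.8, 66.1 and 73.2 TPM in LA cells. All LA+RVT libraries lay above all LA libraries, and the log2 fold change was 0.51 ± 0.046 (SE, adjusted p = 0.00110, n = 3 each, limma). MRPS23 is one of the small-subunit proteins with no bacterial counterpart, and its call held under each of the 14 alternatives run for this arm, with an adjusted p of at most 0.0125. MRPS25, another mitochondria-specific protein of the small subunit, had 49.2, 52.3 and 55 TPM in LA+RVT and 44.8, 39.0 and 40.1 TPM in LA cells, with no overlap (log2 fold change 0.33, adjusted p = 0.0195). MRPS12, the counterpart of bacterial S12 at the decoding site, had 50.6, 55.3 and 52.8 TPM in LA+RVT and 45.4, 44.7 and 44.9 TPM in LA cells, also without overlap (log2 fold change 0.23, adjusted p = 0.0160). MRPS36, the dehydrogenase subunit, had 24.1, 24.4 and 22.4 TPM in LA+RVT cells, against 19.2, 19.1 and 17.2 TPM in LA cells. Its groups did not overlap, and its log2 fold change was 0.34 ± 0.064 (SE, adjusted p = 0.0159, n = 3 each, limma). The call of MRPS36 was lost without LA+RVT replicate 1 or 2, that of MRPS12 without LA replicate 2 or 3, and that of MRPS25 without LA replicate 2 or 3 or LA+RVT replicate 2 or 3. With a replicate block in the fit, the calls of MRPS12 and MRPS25 were lost too.

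**Figure D3:**
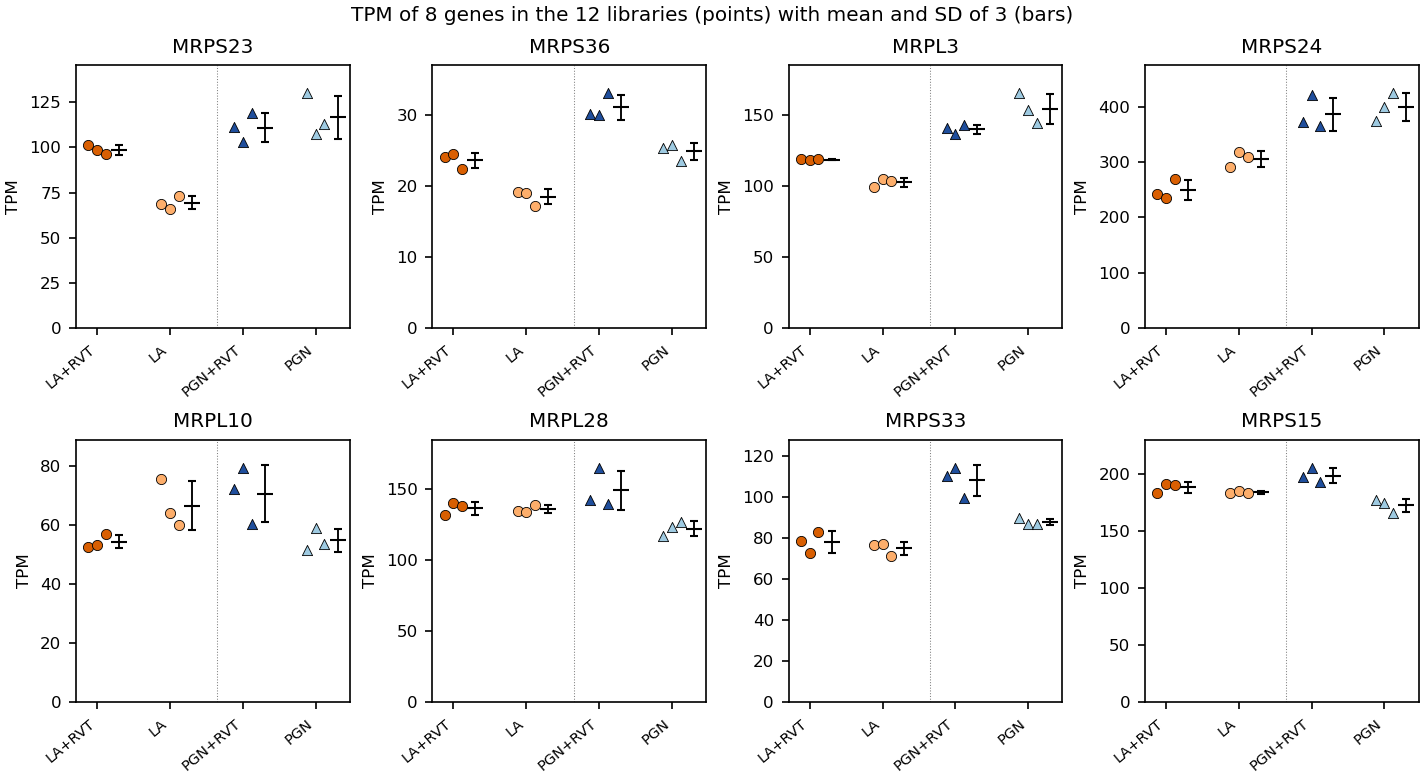
TPM of 8 MRP genes in every library of LA+RVT, LA, PGN+RVT and PGN cells (points), with the mean and SD of 3 beside them; each axis starts at 0. MRPS23 is apart in the LA arm and overlaps in the PGN arm, MRPS36 is higher with RVT in both arms, and MRPL10 lies lower with RVT in the LA arm and higher with RVT in the PGN arm.

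Among large-subunit genes, MRPL3 and MRPL4, the counterparts of bacterial L3 and L4 near the catalytic centre and the peptide tunnel, rose in the LA arm. MRPL3 had 119, 118 and 119 TPM in LA+RVT cells and 99.1, 105 and 104 TPM in LA cells (log2 fold change 0.21 ± 0.032 SE, adjusted p = 0.00786, n = 3 each, limma). MRPL4 had 85.9, 88.6 and 89.4 TPM in LA+RVT cells and 78.3, 74.5 and 75.4 TPM in LA cells (log2 fold change 0.21 ± 0.035 SE, adjusted p = 0.0112, n = 3 each, limma). Neither gene's groups overlapped, and MRPS23, MRPL3 and MRPL4 were the 3 members called under all 14 alternatives. MRPL24, which lies beside the tunnel exit, averaged 133 ± 5.99 TPM in LA+RVT and 111 ± 9.03 TPM in LA cells (SD, n = 3 each), a log2 fold change of 0.27 (adjusted p = 0.0344, limma). MRPL42, a mitochondria-specific protein, and MRPL35 also rose, by 0.22 and 0.23 on the log2 scale, with adjusted p of 0.0235 and 0.0499 (limma). The calls of MRPL24, MRPL35 and MRPL42 were each lost when any of 5 of the 6 libraries of the arm was left out. They were kept without LA replicate 2 (MRPL24), LA+RVT replicate 1 (MRPL35) or LA+RVT replicate 3 (MRPL42). All were absent with library medians equalised, with the rescaled TPM, with no filter on low genes and with a replicate block. That of MRPL35 was also absent with the trend on GC content and length removed.

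The 3 members that fell in the LA arm were MRPL23, MRPS24 and MRPS27. MRPS24 had 243, 235 and 269.8 TPM in LA+RVT cells, against 290.4, 317 and 309.6 TPM in LA cells, with no overlap and a log2 fold change of -0.30 ± 0.058 (SE, adjusted p = 0.0176, n = 3 each, limma). Its call was lost without LA replicate 2 or 3 or LA+RVT replicate 1 or 2 and with no filter on low genes, with adjusted p between 0.0101 and 0.0615 over 14 alternatives. MRPL23, whose LA+RVT and LA libraries did not overlap, had a log2 fold change of -0.67 ± 0.17 (SE, adjusted p = 0.0414, n = 3 each, limma), and LA replicate 2 was its highest library at 7.94 TPM. Leaving out any one library other than LA replicate 1 ended the call of MRPL23, as did a replicate block or no filter on low genes. Its log2 fold change ranged between -0.81 and -0.49 over the alternatives. MRPS27, a pentatricopeptide repeat protein of the small subunit, had 65.4, 67.2 and 65.3 TPM in LA+RVT and 71.9, 71.7 and 75.2 TPM in LA cells (log2 fold change -0.14, adjusted p = 0.0405, limma). Its groups did not overlap, and the call was lost without any one of the 6 libraries, with a replicate block and with no filter.

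In the PGN arm RVT raised 5 of the 78 MRP genes and lowered none at the same threshold (limma, 14622 genes tested). Of all genes tested, 10.6% were called higher, 4.92% lower and 15.6% in either direction, and the members' share was 6.41%. The 5 genes were MRPS36, MRPS33, MRPL28, MRPL55 and MRPS15, with log2 fold changes between 0.20 and 0.31. The members' median was 0.05, beside 0.06 over all genes tested, and 48 members were above 0, beside 62.2% of all genes. At an unadjusted p under 0.05 (limma) there were 22 members in the PGN arm and 29 in the LA arm. The counts over all genes tested were 4498 of 14622 and 4716 of 15409. The members' split was 1 higher and 3 lower, with a median of -0.01, once library medians were equalised. All 14622 genes then gave 850 higher and 1020 lower calls and a median of 0.01. With the trend on GC content and length removed, the members' split was 2 higher and 8 lower and their median -0.03. Among the 14494 genes tested that way, 1091 were called higher and 1378 lower.

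MRPS36 had 30.1, 30.0 and 33.0 TPM in PGN+RVT cells, against 25.3, 25.8 and 23.6 TPM in PGN cells. The groups did not overlap, and the log2 fold change was 0.31 ± 0.066 (SE, adjusted p = 0.0227, n = 3 each, limma). MRPS36 was the 1 member called in both arms, of 12 called in the LA arm and 5 in the PGN arm, and the difference of its 2 effects was -0.03 with a 95% interval from -0.23 to 0.17 (log2). MRPS33, a mitochondria-specific protein of the small subunit, had 110.4, 114 and 99.8 TPM in PGN+RVT cells and 89.9, 87.1 and 86.9 TPM in PGN cells (log2 fold change 0.29 ± 0.059 SE, adjusted p = 0.0180, n = 3 each, limma). MRPS15, the counterpart of bacterial S15, had 197, 206 and 193 TPM in PGN+RVT cells and 178, 174 and 166 TPM in PGN cells (log2 fold change 0.20 ± 0.044 SE, adjusted p = 0.0243, n = 3 each, limma). Neither of them overlapped between the groups.

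On the large-subunit side, MRPL28, a protein with a bacterial counterpart, had 143, 165 and 140.0 TPM in PGN+RVT cells and 117, 124 and 127 TPM in PGN cells, without overlap (log2 fold change 0.28, adjusted p = 0.0387, limma). MRPL55, placed in the central protuberance, had 94.8, 102 and 89.4 TPM in PGN+RVT cells and 75.8, 78.9 and 81.9 TPM in PGN cells, again without overlap (log2 fold change 0.27, adjusted p = 0.0268, limma). None of the 5 genes stayed called under every one of the 14 alternatives for this arm: MRPS33 was called under 9, MRPS36 and MRPS15 under 8, MRPL55 under 6 and MRPL28 under 3. Without PGN+RVT replicate 1, and likewise without PGN+RVT replicate 2, 0 members were called, and without PGN replicate 2 there was 1. MRPS36 and MRPS15 were both lost without PGN replicate 2 or 3 or any PGN+RVT library, MRPS33 without PGN replicate 2 or PGN+RVT replicate 1 or 2, MRPL55 without PGN replicate 1 or 2 or PGN+RVT replicate 1 or 2, and MRPL28 without any one of the 6. PGN+RVT replicate 2 is the library with the lowest median correlation in its arm, and it was the highest PGN+RVT library for MRPL28, MRPS33, MRPS15 and MRPL55. MRPL41 and MRPL10 came closest without passing, at log2 fold changes of 0.29 and 0.35 and adjusted p of 0.0547 and 0.0617.

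**Figure D4:**
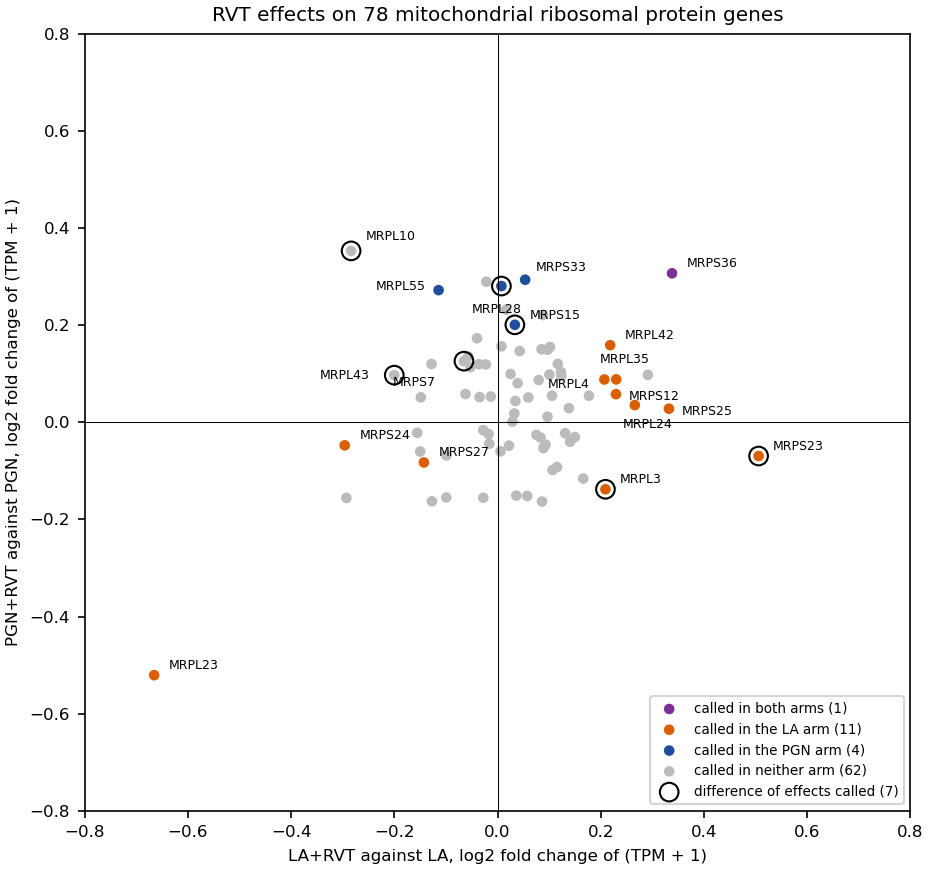
Log2 fold change of each of the 78 MRP genes for LA+RVT against LA (horizontal) and for PGN+RVT against PGN (vertical), coloured by the arm in which the gene was called and ringed where the difference of the effects was called. Most points lie within 0.2 of 0 on both axes with no common diagonal, MRPS36 is the gene called in both arms, and MRPL23 lies lowest on both axes.

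The RVT effects on the 78 genes were scarcely correlated between the arms (Spearman 0.05 over 78 genes, and 0.11 over the 14126 genes tested in both arms, with no shared library). By sign alone, 33 members were above 0 in both arms, 13 below 0 in both and 32 opposite. The difference of the effects, PGN arm minus LA arm, was called for 7 members, 5 higher and 2 lower (limma over 12 libraries and 15177 genes), a share of 8.97%, beside 14.8% of all genes, of which 7.73% were higher and 7.03% lower. The 5 higher were MRPL10, MRPL43, MRPL28, MRPS7 and MRPS15, and the 2 lower were MRPS23 and MRPL3. Under equal library medians 2 were called higher and 3 lower, and 4 and 9 once the GC and length trend was taken out. Over all genes these counts were 983 and 1210 of 15177, and 1056 and 1538 of 15042.

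MRPS23 and MRPL3 rose in the LA arm and were not called in the PGN arm. MRPS23 had 111, 103 and 119 TPM in PGN+RVT cells and 129.9, 107 and 113 TPM in PGN cells, which overlapped. The difference of its effects was -0.58 (95% interval -0.80 to -0.35, adjusted p = 0.00359, limma). MRPL3 had 141, 137 and 143 TPM in PGN+RVT cells and 165, 154 and 144 TPM in PGN cells, which did not overlap, at a log2 fold change of -0.14 that missed the threshold (adjusted p = 0.147, limma). MRPL3 was called lower in the PGN arm under 2 of the 14 alternatives. Its difference was -0.35 (95% interval -0.49 to -0.20, adjusted p = 0.00479, limma). Set side by side, the LA libraries stood below those of the other 3 groups in TPM for both genes.

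MRPL10, which anchors the stalk of the large subunit, had the largest difference. It had 52.9, 53.5 and 57.0 TPM in LA+RVT cells and 75.9, 64.2 and 60.1 TPM in LA cells, a log2 fold change of -0.28 (adjusted p = 0.0691, limma). It had 72.3, 79.6 and 60.4 TPM in PGN+RVT cells and 51.8, 59.2 and 53.8 TPM in PGN cells, a log2 fold change of 0.35 (adjusted p = 0.0617, limma). Neither pair of groups overlapped, and neither arm passed the threshold by itself, while the difference of 0.64 did (95% interval 0.32 to 0.96, adjusted p = 0.0134, limma). Of the 14 alternatives for each arm, 3 called MRPL10 in the LA arm and 4 in the PGN arm. MRPL10, MRPL3 and MRPS23 kept the call of the difference under all 20 alternatives, with adjusted p of at most 0.0402, 0.0214 and 0.0116. MRPL43, a mitochondria-specific protein, and MRPS7, the counterpart of bacterial S7 in the head of the small subunit, also lay below LA with RVT and above PGN with RVT without overlap, and were called in neither arm. In the LA arm, MRPL43 was called lower under 5 of the 14 alternatives and MRPS7 under 2, and in the PGN arm both under 0. Their differences were 0.30 and 0.19 (adjusted p = 0.0167 and 0.0122, limma). The differences of MRPL28 (0.27, adjusted p = 0.0486) and MRPS15 (0.17, adjusted p = 0.0457) were each called under 6 of the 20 alternatives.

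Counted by groups that do not overlap, 21 members lay higher and 11 lower in LA+RVT than in LA libraries, 20 higher and 7 lower in PGN+RVT than in PGN libraries. Of all genes tested, 23.4% lay higher and 12.8% lower in the LA arm, and 24.7% and 11.4% in the PGN arm. The members' counts are near what those shares give for 78 genes.

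Several members with well-known roles were called in neither arm. The 3 paralogs of bacterial S18 that can occupy different places in the ribosome, MRPS18A, MRPS18B and MRPS18C, had log2 fold changes of -0.03, -0.02 and -0.03 in the LA arm and -0.02, -0.02 and 0.05 in the PGN arm. The widest of their 95% intervals ran from -0.21 to 0.14. MRPL12 averaged 173 ± 3.30 TPM in LA+RVT and 163 ± 4.79 TPM in LA cells (SD, n = 3 each), at an adjusted p of 0.132, and its log2 fold change in the PGN arm was -0.03. MRPL58, a peptidyl-tRNA hydrolase that was recruited into the large subunit, had 0.12 and 0.10 in the LA and PGN arms (adjusted p = 0.114 and 0.523). MRPL45, which helps to place the ribosome at the inner membrane, had 0.10 in each (adjusted p = 0.229 and 0.252). MRPL44 had -0.04 and 0.12, and MRPS30 0.14 and 0.03, with no call in either arm. A p that misses the threshold does not show that these levels are equal.

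The members were also split by position and origin, beside the 15.7% of all genes called in the LA arm and 15.6% in the PGN arm. Of 30 large-subunit proteins with bacterial counterparts, 4 were called higher and 1 lower in the LA arm (median log2 fold change 0.09) and 2 higher in the PGN arm (median 0.03). Of 20 mitochondria-specific large-subunit proteins, 1 was higher in the LA arm (median 0.01) and none in the PGN arm (median 0.10). Of 16 small-subunit proteins with bacterial counterparts, 1 was higher and 1 lower in the LA arm (median 0.03) and 1 higher in the PGN arm (median 0.05). Of 9 mitochondria-specific small-subunit proteins, 2 were higher and 1 lower in the LA arm (median 0.02) and 1 higher in the PGN arm (median -0.04). MRPS30 is counted with the large subunit here, and MRPS36, MRPS18A and MRPS18B in none of the 4 groups. Under equal library medians, the bacterial-type large-subunit proteins had 2 called higher and 4 lower in the LA arm and 1 lower in the PGN arm. None of the 5 stalk proteins was called in either arm, with medians of -0.13 in the LA arm and 0.12 in the PGN arm. Of 8 proteins around the peptide exit, MRPL24 rose and MRPL23 fell in the LA arm. Of 8 in the central protuberance, MRPL55 rose in the PGN arm.

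Other genes of mitochondrial translation were read beside the members and beside the shares of all genes tested. Those shares were 10.7% called higher and 5.07% lower in the LA arm, and 10.6% higher and 4.92% lower in the PGN arm. Of the 5 ribosomal proteins with other names (DAP3, AURKAIP1, CHCHD1, PTCD3 and GADD45GIP1), GADD45GIP1 rose in the LA arm, at 54.8 ± 2.64 TPM in LA+RVT and 40.4 ± 1.08 TPM in LA cells (SD, n = 3 each; log2 fold change 0.43, adjusted p = 0.00241, limma). In the PGN arm GADD45GIP1 averaged 46.1 ± 3.34 TPM in PGN+RVT and 53.2 ± 3.20 TPM in PGN cells and was not called, and the difference of its effects was -0.63 (adjusted p = 0.000820, limma). Of 17 translation factors tested, the elongation factors GFM1 and TSFM rose in the LA arm, by 0.29 and 0.27 (log2). In the PGN arm the formyltransferase MTFMT and the membrane insertase OXA1L rose, by 0.46 and 0.17, whereas under equal library medians 0 factors were higher and 1 lower there, and 1 was higher in the LA arm. Of 27 assembly and rRNA modification factors, 3 rose in the LA arm (FASTKD2, MTG1 and MPV17L2) and 4 in the PGN arm (MPV17L2, MTG1, RPUSD3 and ERAL1), and none fell in either, whereas under equal library medians 1 was higher and 1 lower in the LA arm and 0 were called in the PGN arm. MTG1, a GTPase of ribosome assembly, averaged 112 ± 4.08 TPM in LA+RVT and 97.8 ± 4.31 TPM in LA cells, and 97.3 ± 4.31 TPM in PGN+RVT and 82.8 ± 0.382 TPM in PGN cells (SD, n = 3 each). MPV17L2, another assembly factor, averaged 16.9 ± 0.598 TPM in LA+RVT and 13.8 ± 0.884 TPM in LA cells, and 18.8 ± 0.433 TPM in PGN+RVT and 13.5 ± 1.63 TPM in PGN cells (SD, n = 3 each). Of 22 mitochondrial aminoacyl-tRNA synthetases tested, CARS2 and GARS1 were among those that rose in the LA arm, and none was called in the PGN arm, where 1 was lower with library medians equalised.

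Of 12 genes of mitochondrial DNA transcription and maintenance, the helicase TWNK rose in the LA arm and the topoisomerase TOP1MT in the PGN arm. Under equal library medians 1 was higher and 1 lower in the LA arm, and 0 higher and 1 lower in the PGN arm. With no filter on low genes, and likewise with a replicate block, 0 were called in either arm. Shares of all genes tested were 10.7% higher and 5.07% lower in the LA arm, and 10.6% and 4.92% in the PGN arm. Of 9 regulators of mitochondrial biogenesis tested in the LA arm, MYC, PPRC1 and YY1 rose, by 0.71, 0.33 and 0.22 (log2). Under the alternatives that kept all libraries, 2 or 3 regulators were called higher there, and under most of them 2. MYC, a transcription factor that drives many ribosome genes, averaged 74.4 ± 2.66 TPM in LA+RVT and 45.0 ± 1.05 TPM in LA cells, and 129 ± 4.39 TPM in PGN+RVT and 137 ± 3.34 TPM in PGN cells (SD, n = 3 each). Its difference between the arms was -0.80 (limma), and the LA arm call had an adjusted p of 0.000256. In the PGN arm 1 of 8 regulators was called, the coactivator PPARGC1B, which fell by 0.39, while between 0 and 4 were lower under the alternatives that kept all libraries. The transcription factors NRF1 and GABPA were called in neither arm. The median log2 fold change of the 30 members with ETS letters was 0.04 in the LA arm and 0.05 in the PGN arm, and that of the 39 without was 0.03 and 0.04.

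The 13 mitochondrially encoded mRNAs, which this ribosome translates, were mostly lower or not called. In the LA arm 8 fell and MT-ND6 rose (median -0.10), and in the PGN arm 4 fell (median -0.08). Over all genes tested, 5.07% were called lower in the LA arm and 4.92% in the PGN arm. MT-CO3, a subunit of cytochrome c oxidase, averaged 6462 ± 7.39 TPM in LA+RVT and 7893 ± 35.0 TPM in LA cells, and 7626 ± 247 TPM in PGN+RVT and 9227 ± 178 TPM in PGN cells (SD, n = 3 each). Cytosolic ribosomal protein genes, of which 84 were tested, had 59 lower and 1 higher in the LA arm (median -0.17) and 25 lower and none higher in the PGN arm (median -0.07). Equalising library medians made these counts 65 and 30 lower and the medians -0.21 and -0.13, and without a filter on low genes 43 and 2 were lower. The MRP genes' medians were 0.04 in the LA arm and 0.05 in the PGN arm.

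Many members share exons with other genes, and no source says if counting used strand, so values of such pairs are uncertain. MRPS12 shares 349 exonic bases with SARS2 on the opposite strand, MRPS25 shares 1197 with NR2C2 and MRPS27 shares 190 with PTCD2. Also on opposite strands, MRPL43 shares 1170 with SEMA4G and 149 with TWNK, and MRPS7 shares 213 with GGA3 and 146 with MIF4GD. MRPL4 shares 560 and 309 with the antisense genes AC011511.2 and AC011511.3. MRPS24 shares 606 bases on the same strand with URGCP-MRPS24, which averaged between 0.61 and 0.877 TPM. MRPL28 shares 223 bases with TMEM8A on the same strand, which averaged 53.2 TPM in PGN+RVT and 38.2 TPM in PGN cells. MRPL49 shares 282 bases with FAU, a cytosolic ribosomal gene at between 1727 and 2247 TPM. MRPS23, MRPS36, MRPS33, MRPS15, MRPL3 and MRPL10 overlap no other annotated exon. Pseudogenes named after members were mostly low. Of 76 MRP pseudogenes in the table of LA libraries, 4 reached 1 TPM in LA cells, the highest at 10.7 TPM. Of 79 in the table of PGN libraries, 2 did so in PGN cells. With RVT, MRPS18AP1 averaged 1.56 TPM in LA+RVT cells, and MRPS10P1 22.6 TPM in PGN+RVT cells, all from 1 library. Gene starts were often shared: 17 of the 78 members (21.8%) had a protein-coding gene starting within 1000 bases in the opposite direction, against 9.998% of 12633 protein-coding genes tested in the LA arm (GENCODE 29). In 1 such pair both genes are members, MRPL46 and MRPS11, whose starts are 34 bases apart. Their log2 fold changes were -0.10 and 0.02 in the LA arm and -0.15 and 0.23 in the PGN arm, with no call.

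The members' longest annotated transcripts had a median length of 1722 bases, against 3623.5 bases for protein-coding genes tested in the LA arm, and a median GC content of 47.7%, against 48.6%. Across the 78 genes, the log2 fold change had a Spearman correlation with GC content of -0.23 in the LA arm and 0.14 in the PGN arm, beside 0.03 and 0.20 over all genes tested. These are descriptions over genes of the same libraries. The plot of calls by processing choice gives the effect of removing that trend, which moved the PGN arm most.

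**Figure D5:**
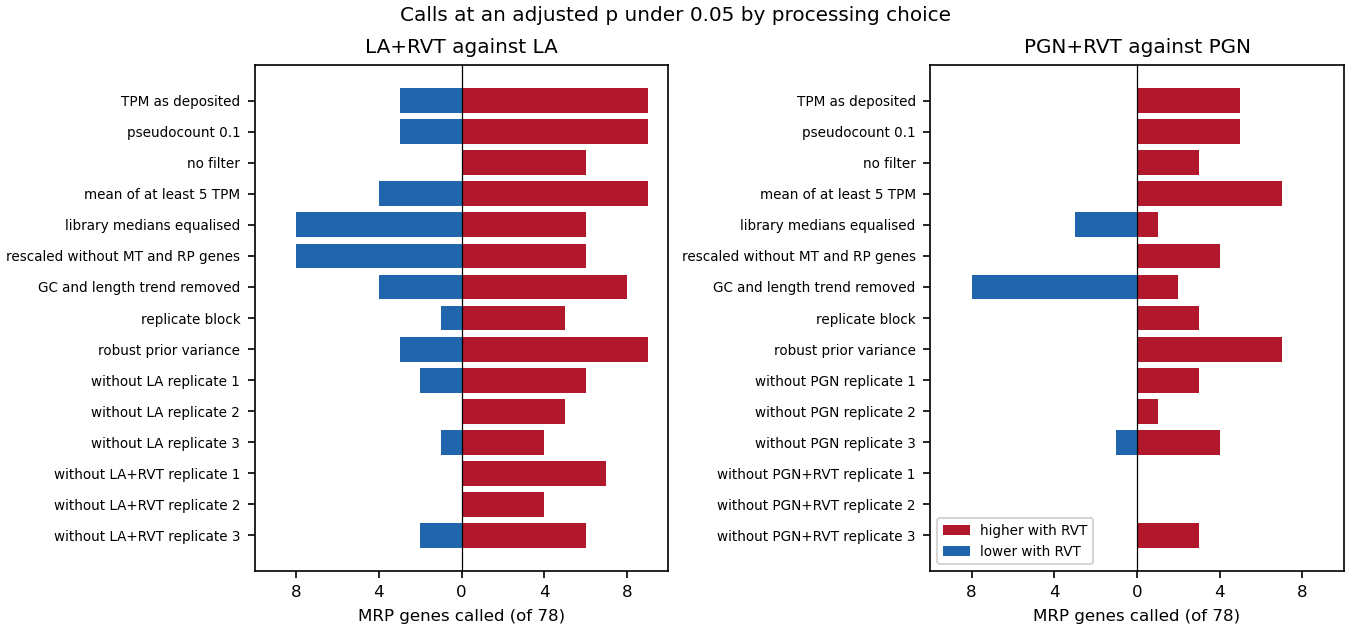
Number of the 78 MRP genes called at an adjusted p under 0.05, higher (right of 0) and lower (left of 0) with RVT, in the LA arm and the PGN arm under each processing choice. The LA arm keeps between 4 and 9 higher calls throughout, whereas the PGN arm has 5 in the fit reported and 0 without PGN+RVT replicate 1 or 2. After removal of the GC and length trend the PGN arm has 2 higher and 8 lower, beside 1091 and 1378 of 14494 genes.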

How the data were processed

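RNA from SZ95 sebocytes was measured in 12 libraries, 3 per group, and titles gave group and replicate number. The LA and PGN libraries were each deposited as a table of TPM. No header names the unit: TPM was inferred from values with decimals and from column sums of 994373 to 997060. The submitters' processing notes list DESeq2 1.24.0, GRCh38.p13, HISAT2 2.1.0 and RSEM 1.3.1 and do not say what each was used for. TPM holds no depth, so no counting interval is given, and a fold change on the log2(TPM + 1) scale understates that of low genes such as MRPL23.

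Tests used log2(TPM + 1) of the deposited values for genes averaging 1 TPM or more in the libraries fitted. The tool was limma 3.58.1 under R 4.3.3 (prior variance with a trend, two-sided, Benjamini-Hochberg over all genes tested, threshold 0.05), a step checked on simulated data. Each arm used its own 6 libraries and the difference of the RVT effects all 12, on genes in both tables. Levels in different tables were not tested against each other. Members and gene lists were chosen with earlier results of these data known. Named genes are the called members (at most 10 per direction and arm, 6 for the difference), those called in both arms, the 5 highest and 3 lowest in TPM, members with a stated role, any with an outlying library, and up to 4 genes per related list with the smallest p in an arm. MRPS11, MRPL46, MRPL49 and genes sharing exons with members were named for their position, and NRF1 and GABPA for the promoter letters. Related lists were translation factors, ribosomal proteins with other names, assembly and rRNA modification, aminoacyl-tRNA synthetases, mitochondrial DNA transcription and maintenance, biogenesis regulators, mitochondrially encoded mRNAs and cytosolic ribosomal proteins. Positions came from GENCODE 29 (GRCh38) and promoters from RefSeq (GRCh38.p14). Alternatives changed the pseudocount, the filter, the scaling, a GC and length trend, the variance prior and a replicate block, or left out 1 library. A few genes of the marker and related lists are not reported here by name.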

Additional observations from a re-analysis of the deposited data

Results flagged for a closer look

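The effect of RVT differed between the PGN arm and the LA arm for 7 MRP genes, by a test of the difference itself (limma over 12 libraries, Benjamini-Hochberg over 15177 genes). On the log2 scale, PGN arm minus LA arm, the difference was 0.64 for MRPL10, 0.30 for MRPL43, 0.27 for MRPL28, 0.19 for MRPS7 and 0.17 for MRPS15. It was -0.58 for MRPS23 and -0.35 for MRPL3. For MRPL10, all 3 LA+RVT libraries lay below all 3 LA libraries, and all 3 PGN+RVT libraries lay above all 3 PGN libraries. The call of MRPS7 was lost with library medians equalised, and those of MRPL28 and MRPS15 under 14 of 20 alternatives each. Of all genes tested, 14.8% were called in this comparison and of the members 8.97%.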

How the results depend on the processing

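The 78 genes gave counts that moved with the processing, and no call changed direction. With no filter, 0 members were lower in the LA arm (1610 genes called in all), 3 higher in the PGN arm (1384 in all) and 3 higher in the difference. With library medians equalised, 8 were lower in the LA arm, 1 higher and 3 lower in the PGN arm, and 2 higher in the difference. Over all genes that setting gave 1080 lower in the LA arm and 983 higher in the difference. In the PGN arm it gave 850 higher and 1020 lower over all genes. Rescaling without mitochondrially encoded and ribosomal protein genes gave 8 members lower in the LA arm, and 1076 over all genes. With the GC and length trend removed, 2 were higher and 8 lower in the PGN arm and 9 lower in the difference. Over all genes, 1091 were then higher and 1378 lower in the PGN arm and 1538 lower in the difference. Deviations of same-numbered libraries from their group means were weakly correlated (r between -0.07 and 0.04). Such values cannot show whether the numbers pair the libraries. With the replicate block 5 were higher and 1 lower in the LA arm (1502 genes in all). There were 3 higher in the PGN arm and 3 higher in the difference, where MRPL43 lost its call. Leaving out 1 library at a time gave 4 to 7 higher and 0 to 2 lower in the LA arm (1428 to 1690 genes in all), 0 to 4 higher and 0 to 1 lower in the PGN arm (1095 to 1861 in all), and 3 to 6 higher and 2 to 4 lower in the difference. Over the members called in at least 1 comparison, 377 results kept their side of the threshold, 124 lost a call and 16 gained one. The 377 hold calls that were kept and also results called neither in the main fit nor in the alternative. Other members, such as MRPL14, MRPL16, MRPS9 and MRPS22, were called under another scaling or with the trend removed, and the cause was not tested. MRPL23 averages under 5 TPM and has no value with that filter. TPM gives no depth, and groups of 3 limit all tests.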

Other observations

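One pseudogene stood out. MRPS10P1, a pseudogene of the small-subunit gene MRPS10, was at 67.8 TPM in PGN+RVT replicate 1 and was listed at 0 in the other 5 libraries of the PGN table and in all 6 of the LA table. It was chosen after its values were seen. That library made the summed TPM of MRP pseudogenes 81.3, against 17.6 and 18.8 in the other PGN+RVT libraries and 17.1, 14.8 and 16.01 in PGN libraries.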
